A study of Schizosaccharomyces pombe with 10 samples.

Results

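The RNA interference genes described here are 8 of the 7268 genes counted in Schizosaccharomyces pombe (fission yeast), chosen by gene identifier: dcr1 (SPCC188.13c), rdp1 (SPAC6F12.09), ago1 (SPCC736.11), chp1 (SPAC18G6.02c), tas3 (SPBC83.03c), hrr1 (SPCC1739.03), cid12 (SPCC663.12) and stc1 (SPBP8B7.28c). In fission yeast, Dicer (Dcr1) cuts double-stranded RNA into small interfering RNAs. The RNA-directed RNA polymerase complex, made of Rdp1, the helicase Hrr1 and the nucleotidyltransferase Cid12, makes that double-stranded RNA. The RITS complex, made of the small RNA binder Ago1, the chromodomain protein Chp1 and the linker Tas3, is guided to transcripts of centromeric repeats. Stc1 ties RITS to the CLRC complex, whose enzyme Clr4 methylates lysine 9 of histone H3 in heterochromatin.

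Polyadenylated RNA of 5 haploid strains was sequenced, with 2 libraries for each strain. The strain called wt is h- with his3 d1, ura4-d18, leu1-32 and ade6-m216 alleles, and cph1Δ and cph2Δ carry a KANMX cassette in place of cph1 or cph2 in that background. The strain called wt2 is another h- parent for which no auxotrophic allele is labelled, and set2Δ, also h-, carries KANMX at set2. Complex II of the Clr6 histone deacetylase has Cph1 and Cph2 as PHD finger subunits, and Set2 methylates lysine 36 of histone H3. All strains grew in 2xYES, a rich medium, at 30 °C to an optical density at 600 nm between 0.6 and 1.2. Whether both libraries of each strain are separate cultures is not labelled, so p-values measure the spread between these libraries, which may be technical, and each deletion is represented by 1 labelled strain.

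Library totals ran from 9711537 to 13051467 counts, and 5067 genes passed the filter on low counts. Scaling factors (TMM, the trimmed mean of M-values, which corrects for differences in composition) lay between 0.904 and 1.02 in 8 libraries, at 0.845 in wt replicate 2 and at 1.25 in cph1Δ replicate 2. The last pair of libraries stood apart, and results that rest on them are given with and without them. In cph1Δ, cph1 had 52 and 33 counts against 801 and 770 in wt. In cph2Δ, cph2 had 70 and 28 counts against 1356 and 1070 in wt. In set2Δ, set2 had 87 and 108 counts against 1211 and 1048 in wt2. Each deleted gene was thus low in both libraries of its own deletion.

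The regions upstream of dcr1 and ago1 are shown because dcr1 passed the test below in both cph deletions and ago1 passed in neither. Both genes lay above wt in both libraries of each cph deletion. A stretch upstream of hrr1 is shown because it holds a motif that few upstream regions hold. Sequences were read from the RefSeq genome, build ASM294v3, and all 8 members matched it by locus tag. Each full region is the 250 bases before the RefSeq start of the gene, 5′ to 3′ on the gene's strand. The dcr1 region is III:1510558-1510807, minus strand, the ago1 region is III:333829-334078, plus strand, and the 30-base hrr1 stretch is III:2029395-2029424, plus strand. Capitals mark a match to TATAAA (the TATA box) or ACGCGT (the MluI cell cycle box) on either strand, so a TATA box on the other strand reads TTTATA.
dcr1: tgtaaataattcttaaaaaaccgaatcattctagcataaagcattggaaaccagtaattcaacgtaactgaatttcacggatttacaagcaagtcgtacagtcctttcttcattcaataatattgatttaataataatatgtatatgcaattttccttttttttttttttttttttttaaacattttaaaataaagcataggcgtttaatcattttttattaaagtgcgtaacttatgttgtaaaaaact
ago1: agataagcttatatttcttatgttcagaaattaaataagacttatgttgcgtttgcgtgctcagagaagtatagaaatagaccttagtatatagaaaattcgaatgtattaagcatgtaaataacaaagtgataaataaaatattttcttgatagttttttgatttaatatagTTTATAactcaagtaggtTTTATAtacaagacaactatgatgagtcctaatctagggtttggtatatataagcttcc
hrr1: ggtattatctgaACGCGTtaaatgcatggt

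The dcr1 region held none of the 3 motifs searched, and ago1 held TTTATA at -77 and -59 from its RefSeq start. TATAAA on either strand was present upstream of 4 of the 8 members and of 44.4% of 5112 coding genes, over windows of the same length. The hrr1 stretch holds ACGCGT at -53, which 1 member and 2.64% of coding genes had. TGACGT, the core of the site for Atf1-type factors, was present upstream of stc1, at -16, and of 5.52% of coding genes. A match is a description of the letters in this window. The RefSeq start differed from the start in the count table's annotation by 17 bases for dcr1, 24 for ago1 and 199 for hrr1, so the hrr1 stretch lies within the gene as the count table annotates it. For rdp1 and chp1 the difference was 350 and 319 bases, so their whole windows lie within the genes as annotated there. Neither of these windows held any of the 3 motifs. Upstream in these motif counts thus means before the RefSeq start.

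The members lie on all 3 chromosomes, 4 of them on chromosome III. In the coordinates of the count table (build ASM294v2), dcr1 is III:1504949-1510574 (minus strand), ago1 is III:334103-337070 (plus), hrr1 is III:2029261-2034205 (plus) and cid12 is III:1655666-1660080 (plus). On chromosome I are rdp1, I:1324591-1329061 (plus), and chp1, I:2210810-2214664 (minus). On chromosome II are tas3, II:1514006-1516211 (minus), and stc1, II:3691008-3691942 (minus). The genes rdp1 and ago1 have 2 exons each, hrr1 has 4, and the other 5 have a single exon.

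Overlap with a neighbour decides how much of each member could be counted, because reads touching 2 genes were not assigned and strand was not used. No exon base of ago1, chp1 or tas3 is shared, and rdp1 shares 44 bases with exo8, which leaves 99.0% of its exon length unshared. On the opposite strand, the septin gene spn6 shares 1841 exon bases with dcr1, which leaves 67.3%, and dms1 shares 1171 with hrr1, which leaves 75.7%. Both naa50 and trp663 lie wholly inside cid12, which leaves 37.8% of its 4415 exon bases. Of stc1's 935 bases, 842 are shared with mug30, which leaves 93. Sharing of exon positions is common in this annotation, at 65.0% of coding genes. Among coding genes, 362 have no unshared base, and all 362 were at 0 counts in every library. Values of dcr1, hrr1, cid12 and stc1 are therefore uncertain as levels of the whole transcript.

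**Figure D1:**
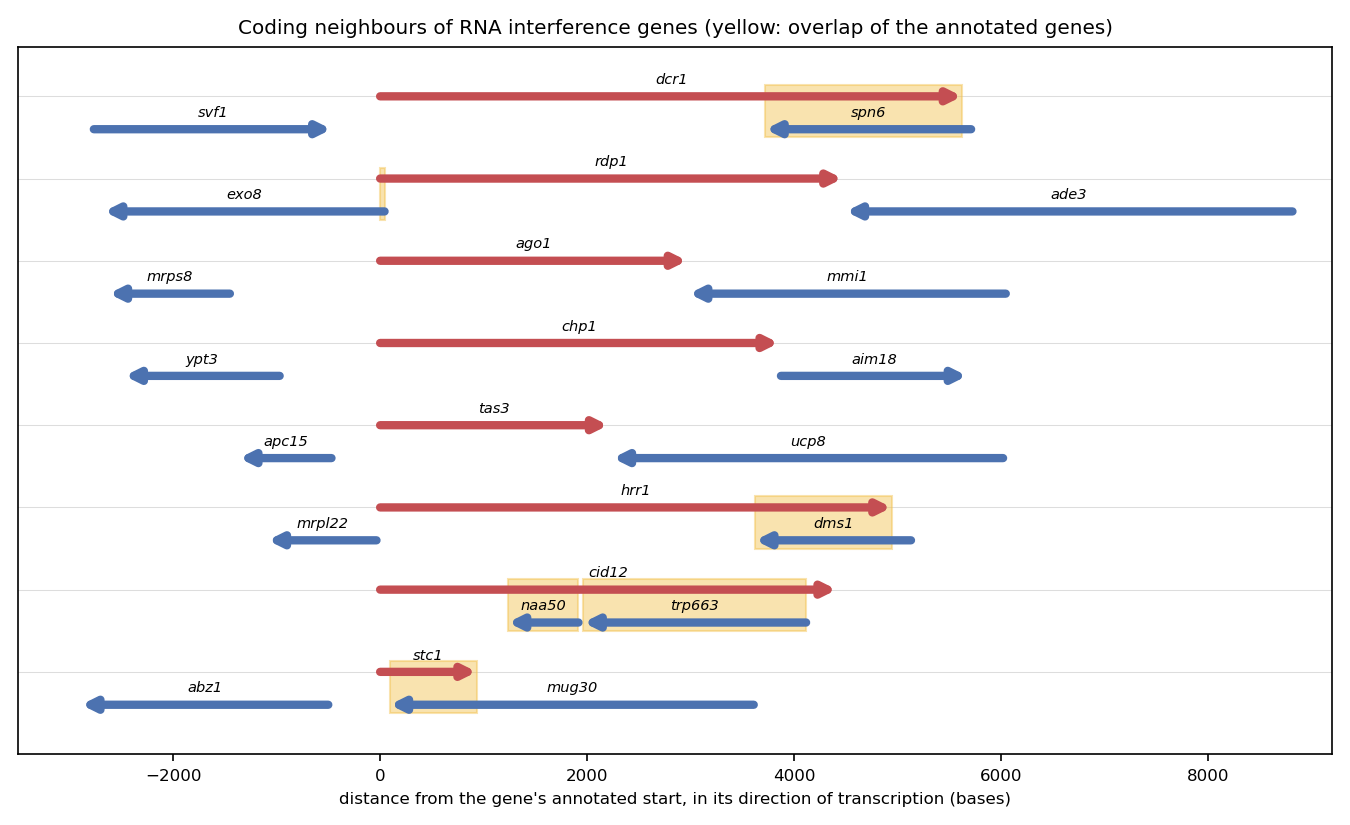
Positions of the 8 genes (red arrows) and their nearest coding neighbours (blue arrows), as distance in bases from each gene's annotated start in its own direction of transcription; arrows point along transcription and yellow marks overlap of the annotated genes. The 3′ neighbour, with sides set by the middle of each gene, points back at the gene in every case but chp1. For cid12 it lies inside the gene.

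For 7 of the 8 members the nearest coding gene downstream was transcribed toward the member, as it was for 56.1% of 5101 coding genes. Sides were set by the middle of each gene, so for cid12 this neighbour is trp663, which lies inside cid12 and not past its end. In 4 cases (dcr1, hrr1, cid12 and stc1) the convergent pair overlapped, which 36.1% of coding genes do. The gaps were 29 bases between rdp1 and the purine synthesis gene ade3, 17 between ago1 and mmi1, and 42 between tas3 and ucp8, and chp1 alone was followed in tandem, by aim18 after 19 bases.

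With reads that could be assigned, 7 members had enough counts to be tested and 1 did not. The lowest count of the 7 in any library was 104, for cid12 in wt2 replicate 2. The eighth, stc1, had 1 count in wt replicate 1, 8 in cph1Δ replicate 1 and 0 in the other 8 libraries. It did not pass the filter and was not tested. A library at 0 allows up to 3 counts, which is 0.230 to 0.309 CPM (counts per 1000000 counts of the library, TMM-scaled where levels are given) among the libraries here, counting error only, and this limit concerns the 93 unshared bases. Its overlapping partner mug30, with 22.3% of its exon bases unshared, had 85 to 238 counts.

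In cph1Δ, the genes for Dicer and for 2 subunits of the polymerase complex rose about 2-fold or more relative to wt. Of the 7 members tested, 3 were higher (dcr1, rdp1 and hrr1) and none was lower by edgeR's quasi-likelihood F-test after Benjamini-Hochberg adjustment over all tested genes at 0.05, where 5.62% of all genes were called, 5.31% higher and 0.316% lower. The RITS genes ago1, chp1 and tas3 did not pass, nor did cid12, although all 7 members were above wt in both libraries (28.8% of all tested genes were). The median log2 fold change was 0.62 over the 7 members and 0.02 over all tested genes. A bulk culture gives 1 average, so more transcript per cell and more cells that carry it cannot be told apart. Strand was not used in counting, so sense and antisense reads cannot be told apart either. Counts per gene also do not separate whole from partial transcripts, here and in the comparisons below.

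For dcr1, TMM-scaled CPM was 52.8 and 46.5 for wt, 104 and 107 for cph1Δ, 102 and 94.7 for cph2Δ, 54.1 and 53.8 for wt2, and 86.8 and 76.2 for set2Δ. The cph deletions were highest, set2Δ lay between, the parents were lowest, and these 3 sets did not overlap. The log2 difference from wt was 1.08 ± 0.16 (SE, n = 2 libraries per group; edgeR adjusted p = 0.00345) in cph1Δ.

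For rdp1, CPM was 78.3 and 72.4 for wt, 143 and 170.3 for cph1Δ, 155 and 182 for cph2Δ, 68.8 and 80.9 for wt2, and 102 and 114 for set2Δ. Its libraries fell in the same order as those of dcr1, with both cph deletions overlapping each other and above all the rest. The log2 difference between cph1Δ and wt was 1.06 ± 0.18 (SE, n = 2; edgeR adjusted p = 0.00594).

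For hrr1, CPM was 41.7 and 33.3 for wt, 69.5 and 119.6 for cph1Δ, 74.8 and 61.0 for cph2Δ, 37.3 and 35.2 for wt2, and 47.3 and 67.4 for set2Δ. Its highest library was cph1Δ replicate 2, and relative to their mean its values spread more within deletion strains than those of dcr1 and rdp1. The log2 difference between cph1Δ and wt was 1.33 ± 0.27 (SE, n = 2; edgeR adjusted p = 0.0152), and it was 0.88 without cph1Δ replicate 2 (edgeR adjusted p = 0.181).

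For cid12, the remaining polymerase complex gene, CPM was 16.3 and 14.98 for wt, 21.6 and 23.7 for cph1Δ, 20.4 and 20.1 for cph2Δ, 12.6 and 10.9 for wt2, and 16.2 and 15.1 for set2Δ. Both set2Δ libraries lay at the level of the wt libraries, above their own parent wt2. Its log2 difference in cph1Δ, 0.53 ± 0.24 (SE, n = 2), did not pass (edgeR adjusted p = 0.214).

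Among the RITS genes, CPM of chp1 was 85.1 and 53.3 for wt, 99.4 and 113 for cph1Δ, 98.5 and 90.1 for cph2Δ, 59.8 and 70.9 for wt2, and 77.6 and 78.2 for set2Δ. Its wt libraries differed from each other more than those of any other tested member did, and both still lay below all cph deletion libraries. The log2 difference in cph1Δ was 0.62 ± 0.21 (SE, n = 2; edgeR adjusted p = 0.124), and it was 0.29 without wt replicate 2 and 0.99 without wt replicate 1.

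For tas3, CPM was 43.3 and 47.4 for wt, 64.4 and 70.2 for cph1Δ, 74.8 and 63.3 for cph2Δ, 46.5 and 43.5 for wt2, and 54.9 and 66.1 for set2Δ. Every deletion library lay above all 4 parent libraries. Its log2 difference in cph1Δ, 0.57 ± 0.18 (SE, n = 2), did not pass (edgeR adjusted p = 0.0890).

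For ago1, CPM was 101 and 89.98 for wt, 107 and 130.1 for cph1Δ, 117 and 126 for cph2Δ, 138 and 142 for wt2, and 119 and 113 for set2Δ. Unlike the other tested members, it was highest in the wt2 parent, and all deletion libraries lay above wt and below wt2. Its log2 difference in cph1Δ was 0.31 ± 0.16 (SE, n = 2; edgeR adjusted p = 0.264), the smallest of the 7.

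**Figure D2:**
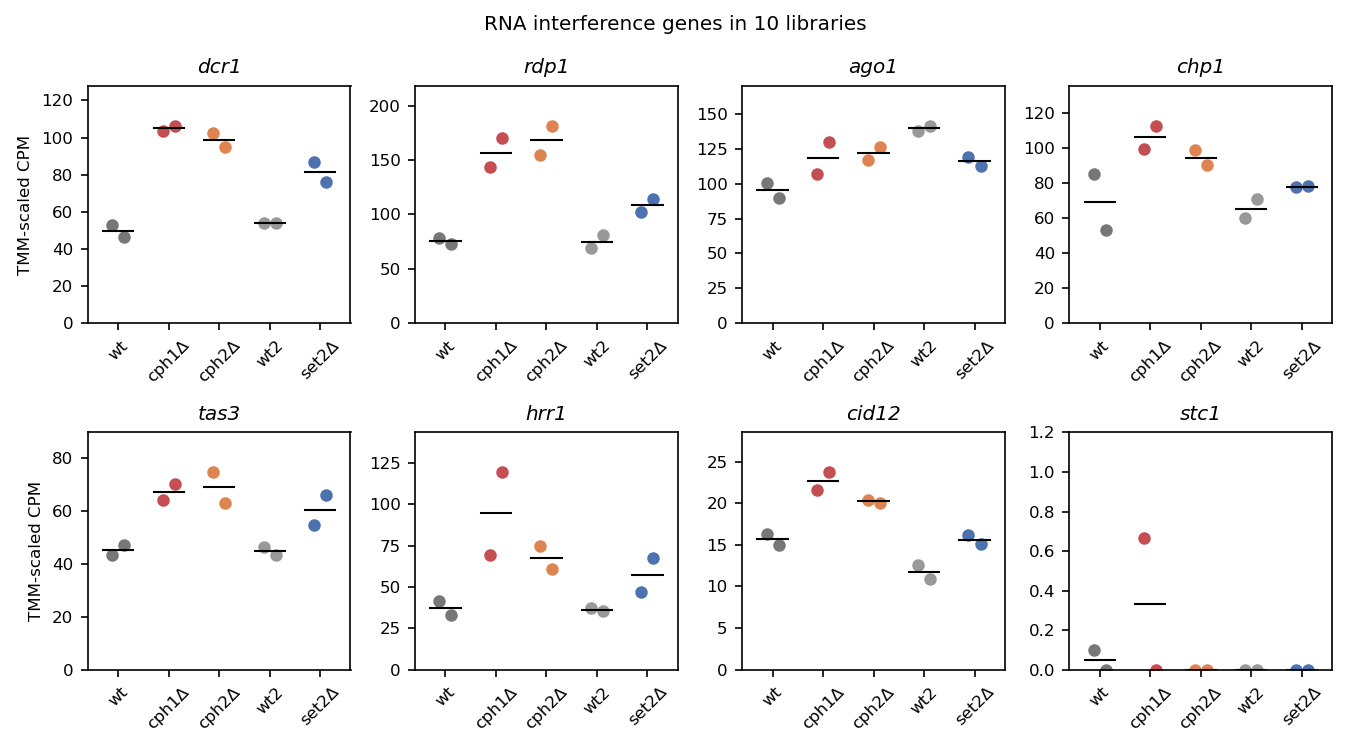
TMM-scaled CPM (y axes, linear from 0) of each gene in the 10 libraries, by strain (x axes); points are libraries and lines the mean of the 2. For dcr1 and rdp1 both cph deletions lie above set2Δ and set2Δ above both parents, ago1 is highest in wt2, and stc1 is near 0 throughout.

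The cph1Δ count rests on 2 libraries. With 1 library left out, its strain has a single library, and the test assumes that it varies like the libraries of the other strains. Over all tested genes too, calls in cph1Δ and in cph2Δ were fewest without wt replicate 2. Losing calls in that setting was therefore not particular to these members. Without wt replicate 2, none of the 7 members passed in cph1Δ by edgeR's quasi-likelihood F-test after Benjamini-Hochberg adjustment (adjusted p = 0.0597 for dcr1, 0.0894 for rdp1 and 0.198 for hrr1), while the log2 difference of dcr1 was still 0.97. Without cph1Δ replicate 2, only dcr1 passed of the 7, and without wt replicate 1, chp1 passed as well.

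In cph2Δ, rdp1 and dcr1 rose relative to the same parent, by 2.23-fold and 1.99-fold. These 2 of 7 members passed and none was lower by edgeR's quasi-likelihood F-test after Benjamini-Hochberg adjustment, where 6.12% of all genes were called, 5.21% higher and 0.908% lower. The log2 difference was 1.16 ± 0.18 (SE, n = 2; edgeR adjusted p = 0.00341) for rdp1 and 0.99 ± 0.16 (SE, n = 2; edgeR adjusted p = 0.00478) for dcr1. All 7 members were above wt in both libraries, as were 27.9% of all tested genes. The median log2 fold change was 0.61 over the members and 0.01 over all tested genes. This comparison shares its wt libraries with that of cph1Δ, so the values of the 2 deletions are not independent.

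The other polymerase complex genes had log2 differences in cph2Δ of 0.85 ± 0.27 (hrr1, edgeR adjusted p = 0.0802) and 0.37 ± 0.24 (cid12, adjusted p = 0.391). The RITS genes had 0.61 ± 0.18 (tas3, edgeR adjusted p = 0.0658), 0.45 ± 0.21 (chp1, adjusted p = 0.235) and 0.35 ± 0.16 (ago1, adjusted p = 0.219), each with SE and n = 2, and none of these 5 passed. Without wt replicate 2, neither dcr1 (edgeR adjusted p = 0.0759) nor rdp1 (0.0592) passed.

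Between cph1Δ and cph2Δ, none of the 7 members differed by edgeR's quasi-likelihood test, and 0.0592% of all genes did. Unadjusted p was under 0.05 for 0 of the 7, against 6.93% of all tested genes, and by DESeq2 the count was 0 too. The largest log2 difference was that of hrr1, 0.48 ± 0.26 higher in cph1Δ (SE, n = 2; edgeR adjusted p = 0.716), and it was 0.05 without cph1Δ replicate 2. The other 6 lay between -0.10 (rdp1) and 0.17 (chp1). A p that misses the threshold does not show that the 2 deletions left these genes at 1 level.

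In set2Δ relative to wt2, no member passed edgeR's quasi-likelihood F-test after Benjamini-Hochberg adjustment, where 4.89% of all genes were called. Unadjusted p was under 0.05 for 4 of the 7, against 18.2% of all tested genes, and DESeq2 called none of the members. Nearest to the threshold was dcr1, at 0.59 ± 0.16 on the log2 scale (SE, n = 2; edgeR adjusted p = 0.0591). Values for rdp1, hrr1 and tas3 were 0.53 ± 0.17, 0.66 ± 0.27 and 0.43 ± 0.18 (SE, n = 2; edgeR adjusted p of 0.119, 0.211 and 0.222). Those for cid12 and chp1 were 0.41 ± 0.25 and 0.25 ± 0.21 (adjusted p of 0.431 and 0.602).

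In total 6 of the 7 lay above wt2 in both set2Δ libraries, against 31.3% of all tested genes, and ago1 lay below in both, against 26.8%. The log2 difference of ago1 was -0.27 ± 0.16 (SE, n = 2; edgeR adjusted p = 0.435). The median was 0.43 over the members and 0.03 over all tested genes.

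Whether the change in a cph deletion differed from that in set2Δ was tested as the difference of the 2 effects, each against its own parent. None of the 7 members passed for cph1Δ or for cph2Δ by edgeR's quasi-likelihood test, where 0.868% and 1.26% of all genes did. DESeq2 called none in either. Unadjusted p was under 0.05 for 1 and 2 of the 7 members, against 8.41% and 11.6% of all tested genes. For ago1 the effect was 0.58 ± 0.23 higher in cph1Δ than in set2Δ on the log2 scale (SE, edgeR adjusted p = 0.497) and 0.62 ± 0.23 higher in cph2Δ (adjusted p = 0.326). For rdp1 these differences were 0.53 ± 0.25 (edgeR adjusted p = 0.604) and 0.63 ± 0.25 (adjusted p = 0.348). No difference between the effects of the cph deletions and of set2Δ on these genes is shown, and none is excluded at this number of libraries.

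Between the undeleted parents, no member differed by edgeR's quasi-likelihood test, and 0.197% of all genes did. Unadjusted p was under 0.05 for 1 of the 7, near the 7.26% of all tested genes, and DESeq2 called none of the members. That member, ago1, was 0.55 ± 0.16 higher in wt2 on the log2 scale (SE, n = 2; edgeR adjusted p = 0.332), a larger value than its difference in any deletion. With dcr1 it made 2 members above wt in both wt2 libraries (19.7% of all genes), and cid12, at -0.41 ± 0.25 (adjusted p = 0.783), was below in both (18.1%). The other 4 overlapped, and their log2 differences lay between -0.09 (chp1) and -0.01 (rdp1).

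**Figure D3:**
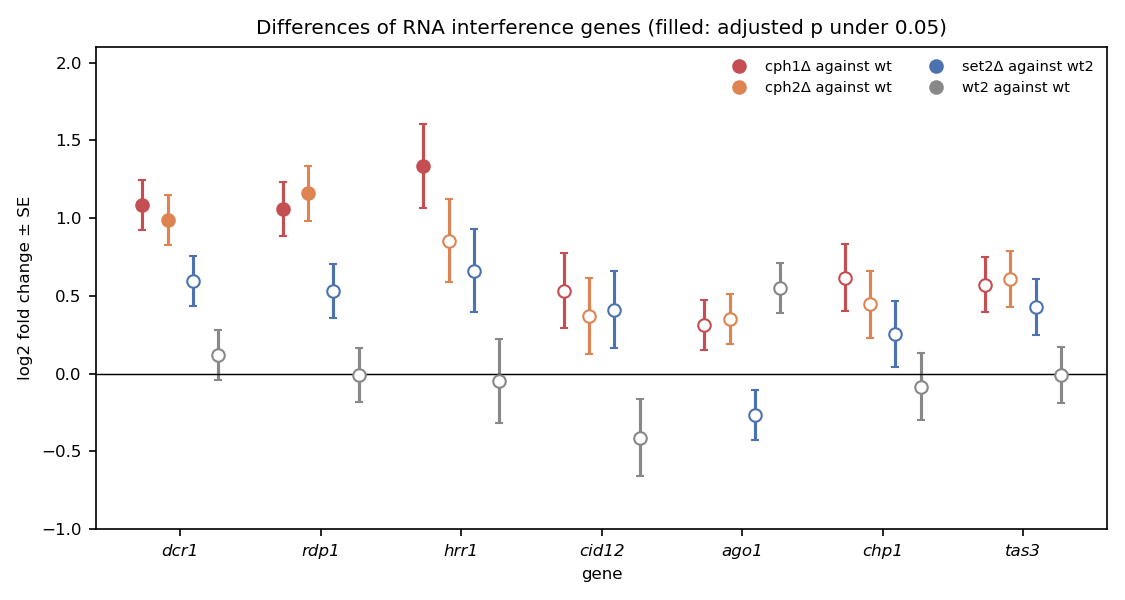
Log2 fold changes with SE bars (y axis) of the 7 tested genes (x axis) in cph1Δ and cph2Δ against wt, set2Δ against wt2, and wt2 against wt; filled points have an edgeR adjusted p under 0.05. The filled points are dcr1 and rdp1 in both cph deletions and hrr1 in cph1Δ, and ago1 alone has its highest value between the parents.

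Summed over the 7 tested members, CPM was 418 and 358 for wt, 609 and 733 for cph1Δ, 643 and 637 for cph2Δ, 417 and 437 for wt2, and 504 and 530.0 for set2Δ. All 4 cph deletion libraries lay above both set2Δ libraries, which lay above all 4 parent libraries.

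Levels of different members were compared per kilobase of exon. In wt, ago1 was highest at 36.7 ± 2.97 CPM per kilobase (SD, n = 2), followed by tas3 at 20.5 ± 1.32, chp1 at 17.9 ± 5.84 and rdp1 at 17.2 ± 0.956, and these last 3 overlapped at their neighbours. Then came dcr1 at 8.82 ± 0.785 and hrr1 at 7.79 ± 1.23, which also overlapped, cid12 at 3.55 ± 0.217 and stc1 at 0.0529 ± 0.0749. The gene of the small RNA binder was thus the highest of the 7 tested members in that strain. How far dcr1 lay below the others is uncertain, since 67.3% of its exon bases could be counted. Per unshared kilobase it stood at 13.1 CPM in wt, beside 17.95 for chp1, 17.3 for rdp1 and 10.3 for hrr1.

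In cph1Δ and cph2Δ, rdp1 moved from rank 4 per kilobase to rank 2, at 35.7 ± 4.33 and 38.3 ± 4.33 CPM per kilobase (SD, n = 2), behind ago1 at 45.6 ± 6.34 and 46.9 ± 2.35. In wt2, ago1 stood at 53.8 ± 1.15 and tas3, next in order, at 20.4 ± 0.953, while rdp1 and chp1 overlapped. In set2Δ, ago1 stood at 44.7 ± 1.81, and tas3 at 27.4 ± 3.60 overlapped with rdp1 at 24.6 ± 1.99. In every strain, ago1 was first, cid12 the seventh and stc1 the eighth.

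Per kilobase of unshared exon, dcr1 stood at rank 4 by its mean in all 3 deletions, just above chp1, at 27.8, 26.0 and 21.5 CPM per unshared kilobase in cph1Δ, cph2Δ and set2Δ. Its libraries overlapped with those of chp1 on this scale in each of the 3. The order in wt and wt2 was the same on both scales. The level of cid12 in wt was 9.39 CPM per unshared kilobase against 3.55 per exon kilobase, a difference that follows from the overlap alone.

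Other factors of the same pathway were read from 3 lists. The counts for each list stand beside shares over all tested genes of 5.62% called in cph1Δ, 6.12% in cph2Δ and 4.89% in set2Δ. Of 7 Argonaute chaperone and other RNA interference factors, 6 were tested, since arb1 has no unshared exon base and was at 0 counts. In cph1Δ, 3 of the 6 were higher and none lower by edgeR's quasi-likelihood test: ers1, which recruits the polymerase complex to heterochromatin (log2 1.40 ± 0.24, adjusted p = 0.00687), the chaperone gene arb2 (1.18 ± 0.27, adjusted p = 0.0281) and dsh1 (0.75 ± 0.19, adjusted p = 0.0468). In cph2Δ only ers1 of the 6 passed (1.30 ± 0.24, edgeR adjusted p = 0.00998), with arb2 at 1.001 ± 0.273 (adjusted p = 0.0533). In set2Δ none of the 6 passed, with ers1 at 0.84 ± 0.24 (edgeR adjusted p = 0.0773).

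CPM of ers1 was 27.9 and 18.9 for wt, 52.8 and 71.1 for cph1Δ, 61.0 and 54.6 for cph2Δ, 19.3 and 22.2 for wt2, and 33.2 and 40.7 for set2Δ. As for dcr1 and rdp1, the cph deletions were highest, set2Δ between and the parents lowest, without overlap. The list's median log2 fold change was 0.53 in cph1Δ, 0.85 in cph2Δ and 0.56 in set2Δ, beside medians over all tested genes of 0.02, 0.01 and 0.03. These medians include eri1 and tri1, nucleases with 20.4% and 14.5% of exon bases unshared and at most 20 counts in any library. The count in cph1Δ was 0 without wt replicate 2 and 0 without cph1Δ replicate 2. The count in cph2Δ was 0 without wt replicate 2, was 2 without wt replicate 1 and was 3 by DESeq2.

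Of 6 CLRC and HP1 genes read here, 5 were tested, since rik1, with 4.58% of its exon bases unshared, had at most 2 counts in any library. In cph1Δ, 1 of the 5 was higher and none lower, the HP1 gene chp2 (log2 0.87 ± 0.22, edgeR adjusted p = 0.0414). In set2Δ chp2 passed as well (1.06 ± 0.22, edgeR adjusted p = 0.0167) and was the only call of the 5. In cph2Δ none of the 5 passed edgeR's quasi-likelihood test, with chp2 at 0.74 ± 0.22 (adjusted p = 0.0684), while unadjusted p was under 0.05 for 2, against 23.5% of all tested genes, and DESeq2 called 0. The methyltransferase gene clr4 had 1.10 ± 0.30 in cph1Δ (edgeR adjusted p = 0.0599) and did not pass in any deletion, and swi6, the other HP1 gene, had -0.14 ± 0.19 (adjusted p = 0.679).

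CPM of chp2 was 29.7 and 23.6 for wt, 49.2 and 48.2 for cph1Δ, 43.2 and 45.8 for cph2Δ, 31.3 and 28.9 for wt2, and 74.9 and 51.1 for set2Δ. All 6 deletion libraries lay above all 4 parent libraries. The list's median log2 fold change was 0.36 in cph1Δ, 0.22 in cph2Δ and 0.56 in set2Δ. In cph1Δ the count was 0 without wt replicate 2 or without either cph1Δ library, with the compared groups alone and with RLE scaling. It was 2 (chp2 and clr4) by DESeq2 and without the filter, and without wt replicate 1 the 1 call was clr4 in place of chp2. In cph2Δ it was 1 without wt replicate 1 (clr4), and in set2Δ it was 0 without wt2 replicate 1, without wt2 replicate 2 or without set2Δ replicate 1.

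Of 8 genes of nuclear RNA elimination, among them mmi1 beside ago1, none passed in cph1Δ, and none in set2Δ, by edgeR's quasi-likelihood test. In cph2Δ 1 was higher, mtl1, which encodes an RNA helicase (0.82 ± 0.16, edgeR adjusted p = 0.0139). That call was lost with the compared groups alone and without wt replicate 1, wt replicate 2 or cph2Δ replicate 2. The list's median log2 fold change was 0.17 in cph1Δ, 0.17 in cph2Δ and 0.15 in set2Δ, nearer to that of all tested genes than the medians of the other lists.

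**Figure D4:**
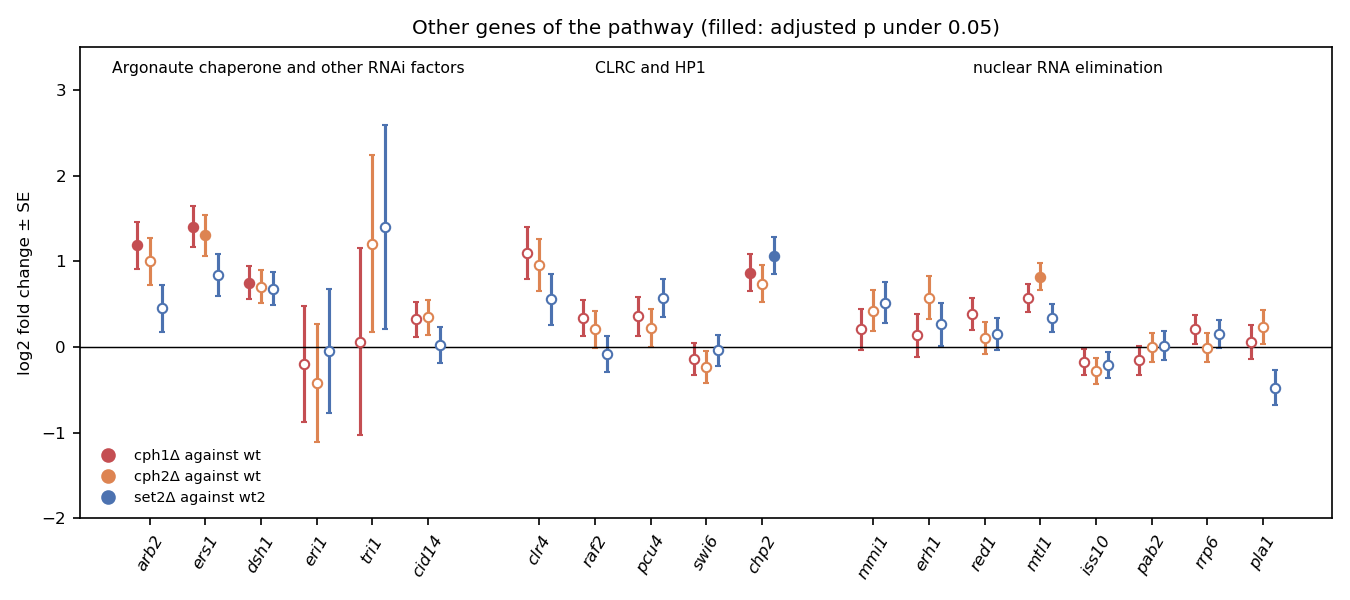
Log2 fold changes with SE bars (y axis) of the tested genes of the 3 lists (x axis) in cph1Δ and cph2Δ against wt and set2Δ against wt2; filled points have an edgeR adjusted p under 0.05 and pcu4 is the gene RefSeq lists as cul4. Filled points are ers1, arb2, dsh1, chp2 and mtl1, none of them below 0.

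The subtelomeric helicase genes tlh1 and tlh2 lie in repeats that RNA interference and heterochromatin are known to silence, and they are near-identical copies whose reads could be split or lost, so their values are uncertain. Counts of tlh2 were 116 and 36 for wt, 297 and 1333 for cph1Δ, 54 and 25 for cph2Δ, 494 and 587 for wt2, and 105 and 89 for set2Δ. The parents differed, and in cph1Δ replicate 2 alone the gene stood above every other library. Its log2 difference was 3.10 ± 0.68 in cph1Δ (SE, n = 2; edgeR adjusted p = 0.0234), a call lost without wt replicate 2 or without cph1Δ replicate 2. In set2Δ it was -2.59 ± 0.67 (edgeR adjusted p = 0.0497), a call lost without any 1 of the 4 libraries, and in cph2Δ it did not pass (-1.05 ± 0.72, adjusted p = 0.405). No call was made for tlh1 in any deletion.

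The convergent neighbours of the members were read beside them. None that was tested (ade3, mmi1, ucp8, dms1 and mug30) passed edgeR's quasi-likelihood test in any deletion. Of all tested genes, 5.62% passed in cph1Δ, 6.12% in cph2Δ and 4.89% in set2Δ. Missing the threshold does not show that a neighbour was unchanged. Beside rdp1, whose log2 difference was 1.06 in cph1Δ and 1.16 in cph2Δ, ade3 had -0.58 ± 0.23 (edgeR adjusted p = 0.156) and -0.33 ± 0.23 (adjusted p = 0.415). On the 5′ side of rdp1, exo8 went up with it, at 0.81 ± 0.23 (edgeR adjusted p = 0.0669) and 0.62 ± 0.23 (adjusted p = 0.135). On the 5′ side of dcr1, svf1 went the other way, at -0.70 ± 0.24 (edgeR adjusted p = 0.119) and -0.52 ± 0.24 (adjusted p = 0.213). Beside hrr1, at 1.33 and 0.85, dms1 had -0.14 ± 0.46 (edgeR adjusted p = 0.880) and -0.77 ± 0.47 (adjusted p = 0.352), on 13.8% of its exon bases. Higher values, also short of the threshold, were those of mug30, which overlaps stc1, at 0.85 ± 0.28 (edgeR adjusted p = 0.103) and 0.90 ± 0.28 (adjusted p = 0.0766). Beside ago1, mmi1 had 0.20 ± 0.24 and 0.42 ± 0.24, and beside tas3, ucp8 had 0.11 ± 0.16 and 0.15 ± 0.16, in cph1Δ and cph2Δ. The overlapping partner of dcr1, spn6, had 4.51% of its exon bases unshared and 0 to 2 counts in every library. Reads in the stretch it shares with dcr1 were counted for neither gene, so the level of spn6 is not known here.

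To describe how alike the members' patterns were, each gene's log2 CPM was centred on its mean over the 10 libraries, and the root mean square difference between genes was taken. Among the 21 pairs of members, dcr1 and rdp1 were closest, at 0.18, followed by chp1 and cid12 at 0.20, and ago1 and hrr1 were farthest apart, at 0.56. Over 4398 other coding genes, the nearest to dcr1 were rev3, the catalytic subunit gene of DNA polymerase zeta, at 0.08, and pol1, that of DNA polymerase alpha, at 0.10. Nearest to rdp1 were the RecQ-type helicase gene hrq1 at 0.10 and ucp12 at 0.12, and nearest to hrr1 the kinetochore gene spc7 at 0.17 and mgs1 at 0.19.

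For ago1 the nearest were ero12 and the GINS subunit gene psf2, both at 0.11, for chp1 dal52 and rcm1, both at 0.11, for tas3 the hamartin gene tsc1 at 0.07 and gta2 at 0.08, and for cid12 the inner nuclear membrane gene man1 at 0.12 and vms1 at 0.13. All distances are on the log2 scale over libraries that share strains and scaling. CPM of rev3 was 65.6 and 53.5 for wt, 121 and 134 for cph1Δ, 128 and 117 for cph2Δ, 58.8 and 66.2 for wt2, and 94.9 and 98.6 for set2Δ, the order seen for dcr1. Since rev3 was picked for its likeness to dcr1 over these same libraries, this match is not separate evidence.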

How the data were processed

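Polyadenylated RNA of 5 strains, 2 libraries each, was sequenced on a NovaSeq instrument, per the labels. What the authors deposited is a table of raw counts, 1 row per gene, with exon lengths. The authors used STAR 2.7.10a, SAMtools 1.16.1, Picard and featureCounts of Subread 2.0.1 with build ASM294v2, and named DESeq2 1.36.0 and edgeR 3.38.4, per the submitters' processing notes. Per the file headers, featureCounts ran on exons without strand or multi-overlap options, so reads in overlaps were not counted. Of 7268 identifiers, 6846 matched RefSeq.

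Groups came from the labels. edgeR 4.0.16 (R 4.3.3) was fitted to all 10 libraries with a mean per group after filterByExpr (2201 genes removed, 0.0105% of counts) and TMM scaling. Its quasi-likelihood test had 5 residual degrees of freedom among libraries, a common biological coefficient of variation of 0.211, and Benjamini-Hochberg adjustment at 0.05 over 5067 genes. SE is the log2 fold change divided by the root of F. Levels are TMM-scaled CPM computed from the counts. The code was tested on simulated data. Alternatives were RLE scaling, DESeq2 1.42.0, no filter, the compared groups alone, a replicate block and leaving out each library, and for levels unshared length. Those for lists and tlh2 were added after seeing the data.

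Named were all members, deleted genes, overlapping and neighbouring genes, up to 4 genes of each list (those past the test first, then by p) and the 2 genes nearest in pattern. Beyond that rule, eri1, tri1, swi6 and the untested arb1 and rik1 were named after their values were seen. The members and lists were chosen with earlier results of these data known. A gene of the CLRC list is not reported here.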

Additional observations from a re-analysis of the deposited data

Results flagged for a closer look

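The difference between the cph1Δ effect and the set2Δ effect passed edgeR's quasi-likelihood F-test after Benjamini-Hochberg adjustment for tlh2, at 5.68 ± 0.96 on the log2 scale (adjusted p = 0.0140). Both cph1Δ libraries lay above wt and both set2Δ libraries below wt2. The parents also differed, with a mean CPM of 7.64 in wt and 51.5 in wt2, beside 65.6 in cph1Δ and 8.59 in set2Δ. The difference of effects includes that between the parents, so it does not by itself show opposite effects of the deletions. In cph1Δ the gene had 297 and 1333 counts. Without cph1Δ replicate 2 the difference was 4.28 (edgeR adjusted p = 0.0628), without wt replicate 2 it was 5.11 (adjusted p = 0.0751) and without set2Δ replicate 2 it was 5.40 (adjusted p = 0.110), so the call was lost in each case. It passed when any 1 of the other 5 libraries was left out, with values from 5.38 to 6.69. Values of the near-identical copies tlh1 and tlh2 are uncertain.

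The deleted genes differed between deletions as their labels say. The difference of effects between cph1Δ and set2Δ was -4.96 for cph1 and 4.12 for set2, and that between cph2Δ and set2Δ was -5.03 for cph2 and 4.12 for set2, all past the same test.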

How the results depend on the processing

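The counts of RNA interference genes called were 3 in cph1Δ and 2 in cph2Δ, naming the same genes, under RLE scaling, DESeq2, no filter, the compared groups alone and the replicate block. Leaving out 1 library, which leaves its strain with 1 library assumed to vary like the rest, gave 0 to 4 in cph1Δ and 0 to 2 in cph2Δ, and the lowest came without wt replicate 2. The counts of 0 in the other 5 comparisons were 0 under every alternative. The cause of these shifts was not tested.

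Deviations of same-numbered libraries had a correlation of -0.385 for cph1Δ and wt, 0.236 for cph2Δ and wt, 0.218 for set2Δ and wt2, -0.172 for cph1Δ and cph2Δ and 0.036 for wt2 and wt. The signs differed, and with 2 libraries per strain these values cannot settle whether the numbers pair the libraries. With the replicate block, genes called were 260 in cph1Δ (285 without), 275 in cph2Δ (310) and 227 in set2Δ (248), and the set2Δ call of tlh2 was lost.

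Over all genes, DESeq2 called 484 in cph1Δ (327 higher, 157 lower, beside 269 and 16 by edgeR), 538 in cph2Δ (337 and 201, beside 264 and 46), 15 between cph1Δ and cph2Δ (3 by edgeR), 85 and 110 for the differences from the set2Δ effect (44 and 64), and 64 between parents (10). Without the filter these were 8 between the cph deletions, 69 for cph1Δ less set2Δ and 32 between parents. The compared groups alone gave 168 in cph1Δ, 121 in cph2Δ and 4 between parents. Leaving out 1 library gave 41 to 311 in cph1Δ, 64 to 440 in cph2Δ, 54 to 130 in set2Δ, 2 to 26 between the cph deletions, 20 to 45 and 20 to 102 for the differences of effects, and 6 to 12 between parents. Scaling by RLE moved the median of all genes by under 0.05 in every comparison.

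Signs changed only for uncalled values when 1 library was left out. Between cph1Δ and cph2Δ the range was -0.219 to 0.0297 for rdp1, -0.174 to 0.108 for ago1 and -0.158 to 0.0816 for tas3. For the cph2Δ effect less the set2Δ effect it was -0.153 to 0.0672 for cid12, -0.116 to 0.572 for chp1 and -0.0355 to 0.477 for hrr1. Between wt2 and wt it was -0.128 to 0.102 for rdp1, -0.399 to 0.292 for chp1, -0.217 to 0.121 for hrr1 and -0.0751 to 0.0395 for tas3. Per unshared kilobase, 3 members changed rank in cph1Δ, 2 in cph2Δ and 2 in set2Δ.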
